A study of Mus musculus with 4 samples.

Results

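Ephrins, Eph receptors, semaphorins, plexins and neuropilins were read in embryoid bodies and teratomas grown from Snai1 knockout and control embryonic stem cells of the mouse. The genes were taken by their symbol on the array platform: Epha or Ephb with a number, Efna or Efnb with a number, Sema with a number and a letter, Plxn with a letter and a number, and Nrp1 and Nrp2. This gave 52 of the 18193 genes named by single-gene probe sets, read through 123 of 34945 such probe sets. By role they were 5 ephrin-A and 3 ephrin-B ligands, 9 EphA and 4 EphB receptors, 7 secreted class 3 semaphorins, 13 membrane-attached semaphorins of classes 4 to 7, 2 neuropilins and 9 plexins.

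The control groups were embryoid bodies and teratomas from stem cells whose genotype is labelled F/F, and the other groups were the same structures from Snai1 knockout stem cells. Embryoid bodies, which are stem cell aggregates, were started in hanging drops, moved to suspension and left to differentiate spontaneously until collection on day 5. Teratomas are tumours in which injected stem cells form a mixture of tissues. The cells were given subcutaneously at the hind limb to 6-week-old male nude mice, and the tumours were removed in week 6. Nude mice lack a thymus and so most T cells but keep B cells, myeloid cells, vessels and connective tissue of their own, and such host cells can enter a teratoma's RNA. Each of the 4 groups had 1 array. There are therefore no replicates, no difference below has a replicate check, and no test was run. Whether a group is 1 cell clone, or its RNA a pool of cultures or tumours, is not given in the sources used here.

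Ephrins and Eph receptors both sit in the cell membrane, so they signal where neighbouring cells touch. The ligand-bearing cell can respond as well as the receptor-bearing cell, and the usual outcome is repulsion, which keeps cell groups apart and steers growth cones. Semaphorins act through plexins, which switch small GTPases and collapse the cytoskeleton at the leading edge, and secreted class 3 semaphorins mostly need a neuropilin as co-receptor. The same molecules also act outside the nervous system, in neural crest migration, in somite and vessel patterning and in heart outflow tract formation.

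Values are log2 expression per probe set, and a gene is read through its probe set with the highest mean. As a floor for each array, the median over its non-control probe sets was taken: 4.71 (control) and 4.73 (knockout) in embryoid bodies, against 5.08 (control) and 5.04 (knockout) in teratomas. Arrays of the same tissue correlated at 0.982 and 0.985 over probe sets. The Snai1 probe set read 4.78 in control and 3.45 in knockout embryoid bodies. In teratomas it read 3.59 and 3.44, under the floor, and the sources used here do not say whether it covers deleted sequence. Of marker lists for the labelled tissues, 7 of 7 pluripotency and epiblast genes were above the floor in both embryoid bodies. In teratomas 5 of these 7 (control) and 6 of 7 (knockout) were above it too. In both teratomas 14 of 14 neuron genes and 6 of 7 skeletal muscle genes were above it. In each embryoid body 7 of 14 neuron genes and 3 of 7 skeletal muscle genes were above it. Of 6 cartilage genes Col2a1, Sox9 and Col9a1 were above it and Acan, Matn1 and Comp below it on every array.

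Promoters of 6 members are shown because Snai1, the gene removed here, codes for a repressor that binds the E-box CAGGTG. Efnb1, Nrp1, Nrp2 and Sema3a differed at least 2-fold in knockout embryoid bodies, and Epha1 and Efnb2 hold that E-box. The windows are the 250 bases before an annotated start from RefSeq on build GRCm38.p6, read 5' to 3' on the gene's strand. They lie at chrX:99135811-99136060 (plus strand) for Efnb1, chr8:128358823-128359072 (plus strand) for Nrp1, chr1:62703067-62703316 (plus strand) for Nrp2 and chr5:13396534-13396783 (plus strand) for Sema3a. Those of the E-box holders lie at chr6:42373269-42373518 (minus strand) for Epha1 and chr8:8661243-8661492 (minus strand) for Efnb2. Capitals mark every CANNTG, the general E-box, of which CAGGTG and its reverse complement CACCTG are a subset.
Efnb1: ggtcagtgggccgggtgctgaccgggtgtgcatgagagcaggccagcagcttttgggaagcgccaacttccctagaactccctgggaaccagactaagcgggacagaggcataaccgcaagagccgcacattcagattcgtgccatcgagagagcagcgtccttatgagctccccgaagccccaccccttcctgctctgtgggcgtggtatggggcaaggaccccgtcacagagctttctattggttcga
Nrp1: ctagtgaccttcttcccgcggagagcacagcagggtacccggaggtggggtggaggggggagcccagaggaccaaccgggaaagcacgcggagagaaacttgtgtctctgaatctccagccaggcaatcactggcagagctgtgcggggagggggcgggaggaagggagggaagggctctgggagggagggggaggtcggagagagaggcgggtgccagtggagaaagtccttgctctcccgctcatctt
Nrp2: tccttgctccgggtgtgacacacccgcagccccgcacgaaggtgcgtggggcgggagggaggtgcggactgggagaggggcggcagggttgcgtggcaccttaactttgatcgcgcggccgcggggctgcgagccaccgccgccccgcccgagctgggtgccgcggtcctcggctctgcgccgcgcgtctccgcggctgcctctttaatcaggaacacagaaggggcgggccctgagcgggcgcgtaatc
Sema3a: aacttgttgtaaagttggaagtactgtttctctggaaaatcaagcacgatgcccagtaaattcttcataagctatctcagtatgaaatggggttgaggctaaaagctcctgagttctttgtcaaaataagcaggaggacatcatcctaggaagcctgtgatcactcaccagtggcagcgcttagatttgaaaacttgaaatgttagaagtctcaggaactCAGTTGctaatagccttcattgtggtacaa
Epha1: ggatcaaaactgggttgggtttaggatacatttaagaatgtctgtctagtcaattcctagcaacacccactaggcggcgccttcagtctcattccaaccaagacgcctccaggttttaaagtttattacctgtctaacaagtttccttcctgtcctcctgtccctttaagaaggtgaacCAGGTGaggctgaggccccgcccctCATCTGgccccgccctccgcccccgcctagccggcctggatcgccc
Efnb2: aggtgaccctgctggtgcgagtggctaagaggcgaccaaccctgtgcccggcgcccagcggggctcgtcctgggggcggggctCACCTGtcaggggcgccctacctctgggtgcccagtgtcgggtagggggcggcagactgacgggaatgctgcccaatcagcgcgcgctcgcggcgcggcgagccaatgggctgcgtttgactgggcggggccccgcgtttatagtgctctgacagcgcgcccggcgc
In Epha1 a CAGGTG begins 71 bases before the start and a CATCTG 46 bases before it, in Efnb2 a CACCTG begins 167 bases before the start, and in Sema3a a CAGTTG begins 30 bases before it. No CANNTG occurs in the Efnb1, Nrp1 or Nrp2 window. RefSeq windows were matched for 46 of the 52 members. CAGGTG or CACCTG occurs in at least 1 window of 7 of these 46 genes, or 15.2%, against 19.4% of the 27025 genes with windows. The 7 are Efnb2, Epha1, Plxnb2, Sema3d, Sema4c, Sema4f and Sema6d. In embryoid bodies the 6 of them that were measured differed by -0.23 to 0.53 between knockout and control. The 6 members with a matched window among those that differed at least 2-fold there hold 0 such motifs. A match describes letters and is not a binding site.

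**Figure D1:**
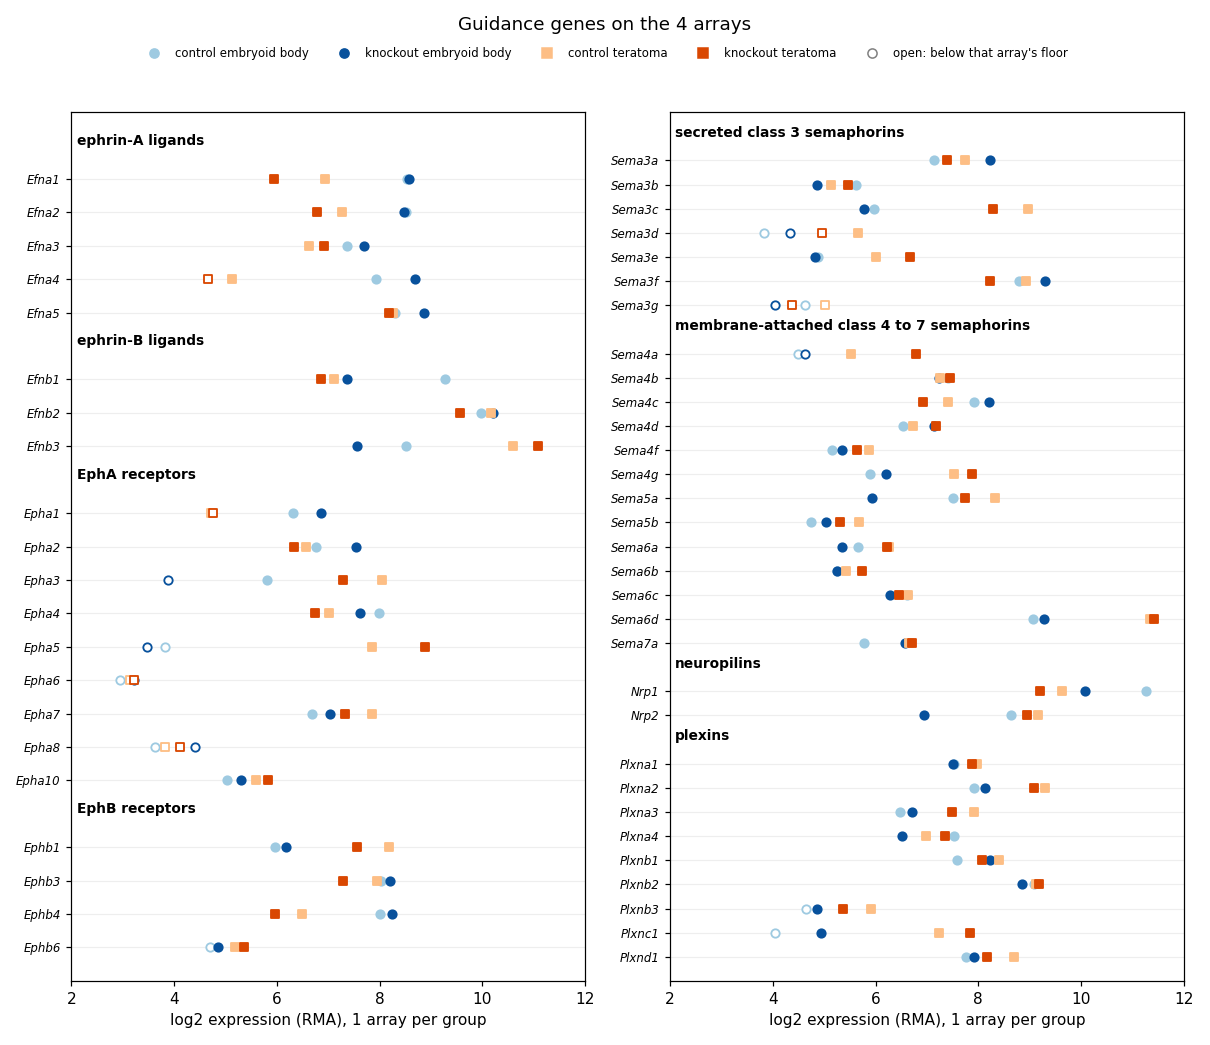
Log2 expression (x axis, RMA values) of the 52 guidance genes by role, with 1 point for each of the 4 arrays (circles, embryoid bodies; squares, teratomas; pale, control; dark, Snai1 knockout) and open symbols below that array's floor. Nrp1, Nrp2, Efnb1 and Sema5a have dark circles well to the left of the pale ones, and Epha5, Sema3c and Efnb3 have both squares to the right of both circles.

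Most members were at or above the floor in both settings. The floor is a median over probe sets and not a detection call, and reading each gene through its highest probe set favours values above it. On all 4 arrays 40 of 52 were at or above the floor and 3 (Epha6, Epha8 and Sema3g) were below it. The other 9 were above it on some arrays: Efna4, Epha1, Epha3, Epha5, Ephb6, Plxnb3, Plxnc1, Sema3d and Sema4a. The count on all 4 arrays was not made over all genes. A gene counts as measured in a comparison when at least 1 of its 2 arrays is at or above the floor. Between the embryoid bodies 46 of 52 members were measured, and 12282 of all 18193 genes. A value below the floor was raised to it before the difference was taken, and such a difference is a bound.

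The first comparison was knockout against control in day 5 embryoid bodies. Both neuropilins, the ephrin-B ligand Efnb1, the semaphorin Sema5a, the receptor Epha3 and the plexin Plxna4 were at least 2-fold lower in the knockout, and Sema3a was at least 2-fold higher. Of 46 measured members, 6 were lower (13%) and 1 was higher (2.17%). Among all 12282 measured genes, 3.98% were at least 2-fold lower and 2.18% at least 2-fold higher. The share of higher members is thus at the background. The median difference over members was 0.19, against 0.026 over all genes, and 29 of the 46 lay above 0. That is 63% of members, against 53.1% of all genes. In RNA from whole aggregates, fewer cells of a type and less RNA per cell cannot be told apart.

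The ephrin-B ligands, transmembrane proteins that mark tissue boundaries, split. Efnb1 codes for an ephrin needed in neural crest and craniofacial patterning. It read 9.28 in control and 7.36 in knockout embryoid bodies, 7.11 in the control teratoma and 6.86 in the knockout teratoma, so the control embryoid body stands well above the other arrays. It was 3.77-fold lower in knockout embryoid bodies, and its other probe sets gave 4.37-fold and 3.71-fold. Efnb3, a midline barrier to spinal axons, read 8.51 (control) and 7.55 (knockout) in embryoid bodies, against 10.59 (control) and 11.09 (knockout) in teratomas. Its difference in embryoid bodies, -0.96 from its only probe set, lies just short of 2-fold. Efnb2, the ephrin of arteries, differed by 0.24. The 5 GPI-anchored ephrin-A ligands differed by -0.04 (Efna2) to 0.75 (Efna4), and 0 of 5 reached 2-fold.

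Among Eph receptors only Epha3 reached 2-fold in embryoid bodies, of 10 measured. Epha3, a receptor of ephrin-A5 found in heart mesenchyme, read 5.82 in control embryoid bodies and 3.87, below the floor, in the knockout. In teratomas it read 8.04 (control) and 7.28 (knockout). The knockout embryoid body was thus the only array without it above the floor. The difference is a bound, at least 2.12-fold lower, and the other 3 probe sets lay below the floor in both embryoid bodies. The other measured EphA receptors ranged from -0.38 (Epha4) to 0.78 (Epha2, the receptor of epithelial cells). The EphB receptors lay within 0.15 to 0.24, Ephb4, the venous partner of ephrin-B2, at 0.24. Epha5, Epha6 and Epha8 were below the floor in both embryoid bodies.

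Secreted Sema3a was higher, and its co-receptor Nrp1 and 1 of 4 class A plexins were lower. Sema3a, the prototype growth cone repellent, read 7.15 (control) and 8.24 (knockout) in embryoid bodies, against 7.75 (control) and 7.39 (knockout) in teratomas. The knockout embryoid body was its highest array, 2.13-fold above the control. Its other probe sets were under the floor in control embryoid bodies, which puts the knockout at least 2.92-fold above by the brighter and at least 1.07-fold above by the dimmer of them. Nrp1, the Sema3a co-receptor that also binds VEGF-A, read 11.26 (control) and 10.08 (knockout) in embryoid bodies, against 9.63 (control) and 9.20 (knockout) in teratomas. It was 2.27-fold lower in knockout embryoid bodies, with other probe sets from 1.55-fold to 2.29-fold lower. Plxna4, a signalling partner of Nrp1 for Sema3a, read 7.53 (control) and 6.51 (knockout) in embryoid bodies, against 6.99 (control) and 7.34 (knockout) in teratomas. It was 2.03-fold lower in knockout embryoid bodies, on the 2-fold line, and its other probe set was 1.39-fold lower. The other class A plexins, which also pair with neuropilins, differed by -0.03 (Plxna1), 0.20 (Plxna2) and 0.23 (Plxna3).

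Nrp2, the co-receptor of Sema3f and of VEGF-C, read 8.64 (control) and 6.95 (knockout) in embryoid bodies, against 9.17 (control) and 8.94 (knockout) in teratomas. The knockout embryoid body alone was low, 3.23-fold below its control, and the other measured probe sets gave 2.38-fold and 2.79-fold. Sema3f itself, the main Nrp2 ligand, differed by 0.51 on a probe set with shared sequence and by 0.012 and 0.07 on the others. The other measured class 3 semaphorins were Sema3b at -0.76, Sema3c at -0.18 and Sema3e at -0.05. Sema3d and Sema3g were below the floor in both embryoid bodies.

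Of 12 measured membrane-attached semaphorins, only Sema5a reached 2-fold. Sema5a, which carries thrombospondin repeats and can attract or repel axons, read 7.51 (control) and 5.93 (knockout) in embryoid bodies, against 8.33 (control) and 7.74 (knockout) in teratomas. It was 2.98-fold lower in knockout embryoid bodies, and its other measured probe set was 1.55-fold lower. The remaining 11 ranged from -0.32 (Sema6c) to 0.79 (Sema7a, the GPI-anchored semaphorin). The plexins other than Plxna4 ranged from -0.23 (Plxnb2) to 0.65 (Plxnb1, the Sema4d receptor).

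Markers of mesenchyme and endothelium, cell types that carry neuropilins and ephrins, moved with the lower members. Of 12 fibroblast and mesenchyme markers, 9 were at least 2-fold lower in knockout embryoid bodies and 0 higher. Their mean log2 level was 9.56 (single genes 4.40 to 13.02) in the control and 6.53 (4.81 to 8.37) in the knockout, with Lum, Postn and Col3a1 differing by -6.36, -5.94 and -5.79. The 3 others lay above 0: the transcription factor genes Prrx1 at 0.76 and Twist1 at 0.32, and Thy1, under the floor in the control, at 0.10 or more. Of 11 endothelial markers 6 were lower and 0 higher. Their mean was 7.26 (5.96 to 9.07) in the control and 6.09 (4.84 to 8.80) in the knockout. The vessel genes Cldn5, Tek and Tie1 differed by -2.87, -2.45 and -1.76, while the VEGF receptor genes Kdr and Flt1, which pair with neuropilins, differed by -0.23 and 0.60. No endothelial marker was below the floor in either embryoid body, and of the mesenchymal markers Thy1 was, in the control. Epithelial markers had means of 9.74 (5.88 to 12.77) and 10.56 (7.21 to 12.92), with 3 of 10 higher. Of 14 neuron markers 7 were above the floor on each array, among them Stmn2 at 8.23 and 8.94, and Dcx, Map2, Snap25 and Syp were below it on both. Their means were 4.79 (3.11 to 8.23) and 5.00 (3.59 to 8.94), and 0 were 2-fold different. Neural progenitor markers had means of 5.56 (3.63 to 9.07) and 6.09 (3.86 to 9.49), with 2 of 6 measured higher and 6 of 6 above 0. Of 6 primitive streak and early mesoderm markers 4 were higher (Mixl1, Eomes, Mesp1 and Gsc) and 2 lower (Foxf1 and Hand1), with means of 6.80 (4.64 to 8.86) and 7.12 (5.98 to 9.78). The part of these cell types in the guidance gene differences was not tested.

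**Figure D2:**
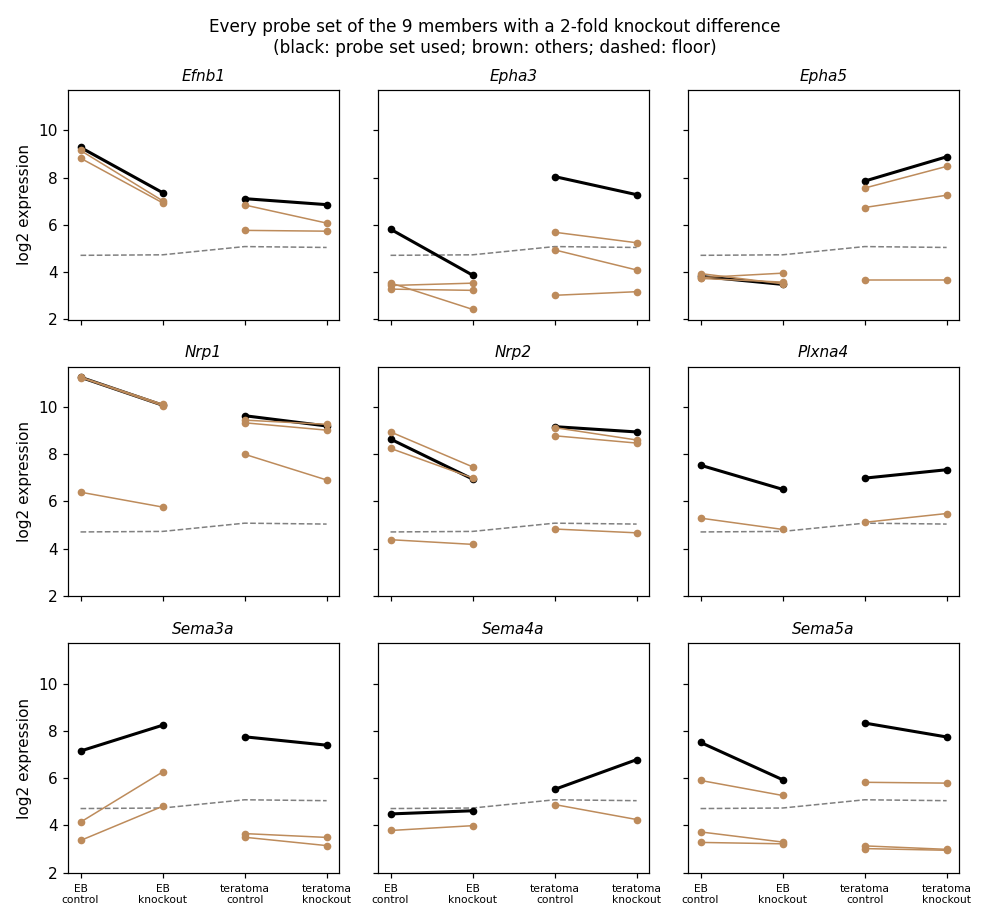
Log2 expression (y axis) of every probe set of the 9 members with a 2-fold knockout difference in either setting, on the control and knockout arrays of embryoid bodies (EB) and teratomas (x axis); black, the probe set used; brown, other probe sets; dashed, the floor. All measured probe sets of Efnb1, Nrp1, Nrp2, Plxna4 and Sema5a slope down in embryoid bodies, and the 3 probe sets of Epha5 above the floor slope up in teratomas.

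In embryoid bodies 3 of the 7 calls ended under an alternative. Plxna4 was under 2-fold after quantile normalization of the 4 arrays and when probe sets were averaged. Sema5a was no longer called with averaged probe sets, where its knockout value lay below the floor and its difference, -0.37, is a bound. Epha3 was below the floor on both arrays with averaged probe sets and with the floor at the 65th percentile. With averaging, 3 of 40 measured members were lower, against 3% of 11485 measured genes. Where a gene had several probe sets, which read the same RNA on the same array, their differences had a pooled SD of 0.29 over 4977 genes.

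The second comparison was knockout against control in week 6 teratomas. Here the receptor Epha5 and the semaphorin Sema4a were at least 2-fold higher in the knockout, and 0 members were at least 2-fold lower. Of 48 measured members the 2 higher ones make 4.17%, against 3.25% of all 12197 measured genes, a share near the background. At least 2-fold lower were 1.07% of all genes. After quantile normalization the split was 1 higher and 1 lower, against 3.07% and 1.69% of all genes. Although few members crossed 2-fold, 31 of 48 lay below 0 and the median was -0.22, against 0.065 over all genes. Above 0 lay 35.4% of members, against 57.6% of all genes. The member median stayed below 0 in each of the alternatives run, between -0.33 after quantile normalization and -0.066 with averaged probe sets.

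Epha5, a receptor of brain neurons that takes part in topographic mapping, read 3.82 (control) and 3.48 (knockout) in embryoid bodies, both below the floor. It read 7.85 in the control and 8.88 in the knockout teratoma. It was therefore above the floor in teratomas only, and there it was 2.04-fold higher in the knockout, with other measured probe sets at 1.89-fold and 1.43-fold. After quantile normalization, and with averaged probe sets (0.62), it was under 2-fold. Sema4a, a semaphorin of dendritic cells and lymphocytes, read 4.48 (control) and 4.62 (knockout) in embryoid bodies, below the floor. It read 5.52 in the control and 6.78 in the knockout teratoma, 2.39-fold higher. Its other probe set, whose sequence other genes share, was under the floor in teratomas, and Sema4a was under 2-fold with averaged probe sets (0.31). With the floor at the 65th percentile its control teratoma value lay below the floor. Its difference there, 0.38, is a bound and was not called.

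Many markers of neurons, glia and leukocytes were higher in the same knockout teratoma. Of 14 neuron markers 7 were at least 2-fold higher and 0 lower, and their mean was 9.79 (6.00 to 11.87) in the control and 10.60 (8.41 to 12.13) in the knockout, with Gad2, Syp and Rbfox3 differing by 2.42, 1.86 and 1.40. Dcx alone of them lay below 0, at -0.70. Of 10 measured astrocyte and oligodendrocyte markers 3 were higher (Mobp at 2.18, Gfap at 1.44 and S100b at 1.37) and 9 lay above 0, with means over the list of 8.22 (3.31 to 11.69) and 9.03 (3.61 to 12.08). Neural progenitor markers went the other way: of 9 measured, 7 lay below 0, 1 was lower (Neurog2 at -1.46) and 0 were higher. Their means were 8.07 (6.30 to 12.73) and 7.77 (5.75 to 12.55). Of 10 leukocyte markers 7 were measured and 5 were higher. Their mean was 5.50 (3.20 to 9.87) in the control and 7.40 (4.19 to 11.25) in the knockout, with Ighm, the B cell immunoglobulin gene, differing by 6.14, Ptprc by 2.12 and Cd68 by 1.10. Csf1r and Tyrobp were also measured and differed by only -0.19 and 0.03. The T cell gene Cd3e, Itgam and Cd79a were below the floor on both arrays. Of 12 mesenchyme markers 3 were lower and 1 higher, with means of 10.20 (6.89 to 13.40) and 9.68 (6.56 to 12.73). Of 10 epithelial markers 8 lay below 0 and 1 was lower, Krt8 at -1.02, with means of 8.67 (6.87 to 10.69) and 8.24 (6.94 to 9.67). The part of these cell types in the values of Epha5, Sema4a and the members below 0 was not tested.

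Efna1, a ligand of Epha2, lay just short of 2-fold in teratomas. It read 8.54 (control) and 8.58 (knockout) in embryoid bodies, against 6.93 (control) and 5.94 (knockout) in teratomas, a difference of -0.99 in teratomas, and after quantile normalization it was the 1 member counted as lower. Its other probe set was under the floor in teratomas. The ephrin-A and ephrin-B ligands otherwise ranged from -0.60 (Efnb2) to 0.50 (Efnb3) in teratomas. Of the EphB receptors Ephb1, Ephb3 and Ephb4 differed by -0.61, -0.65 and -0.53, and Ephb6, which lacks kinase activity, by 0.18. EphA receptors other than Epha5 ranged from -0.77 (Epha3) to 0.23 (Epha10).

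On the probe sets used, no semaphorin receptor reached 2-fold between teratomas. Nrp1 and Nrp2 differed by -0.43 and -0.22. The other Nrp1 probe sets differed by -0.18, -0.31 and, on the lowest-reading of them, -1.09. Plexins ranged from -0.54 (Plxnb3) to 0.60 (Plxnc1, the receptor of Sema7a), and Plxnd1, the Sema3e receptor of vessels, differed by -0.52. The other measured Plxnc1 probe set differed by only -0.04. Of the 6 measured class 3 semaphorins 4 lay below 0, from -0.69 (Sema3f, whose other probe sets gave 0.32 and 0.26) upwards, and Sema3e differed by 0.65. Besides Sema4a, the membrane-attached semaphorins ranged from -0.59 (Sema5a) to 0.46 (Sema4d).

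The knockout differences in embryoid bodies and in teratomas come from separate pairs of arrays. Of 45 members measured in both, 19 were above 0 in embryoid bodies and below 0 in teratomas, 11 were below 0 in both, 9 were above 0 in both and 6 were below 0 in embryoid bodies and above 0 in teratomas. This split was not made over all genes. Across the 40 members at or above the floor on all 4 arrays, Pearson's r between the differences was -0.069, a description over genes that share arrays. Of the 7 members at least 2-fold different in embryoid bodies, 0 reached 2-fold in teratomas on the probe set used. Among all measured genes only 3.25% were at least 2-fold higher and 1.07% lower in teratomas. The overlap between settings was not counted over all genes, so 0 of 7 does not set the members apart. Efnb1, Nrp1, Nrp2, Sema5a and Epha3 had the same sign in both, and Plxna4 and Sema3a opposite signs.

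**Figure D3:**
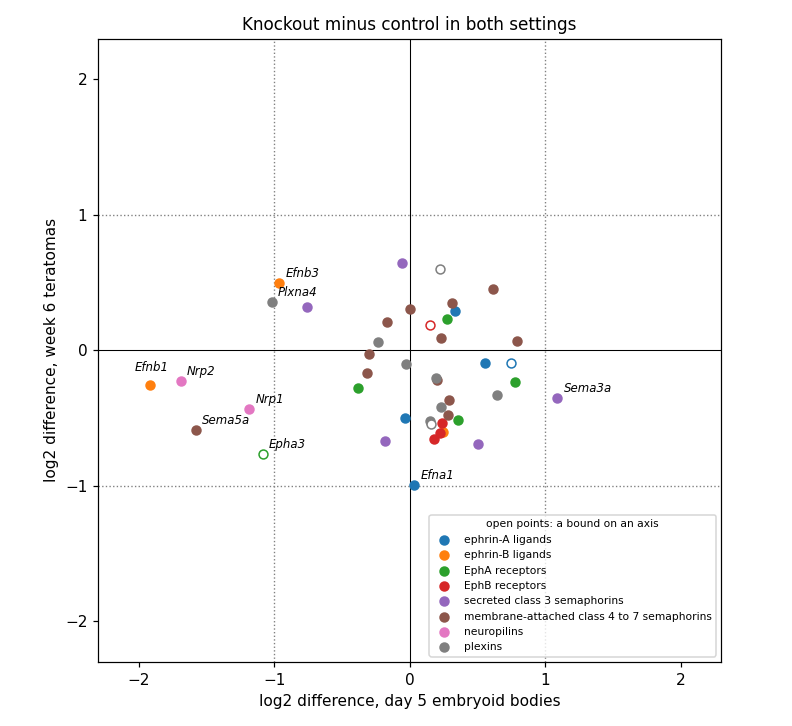
Log2 difference, knockout minus control, of members measured in both settings, in embryoid bodies (x axis) and teratomas (y axis), coloured by role, with dotted lines at 2-fold and open points where a value is a bound. Points past the left dotted line are Efnb1, Nrp2, Sema5a, Nrp1, Epha3 and Plxna4, Sema3a is past the right one, and none lies past 2-fold on the teratoma axis, since Epha5 and Sema4a were below the floor in embryoid bodies.

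The third comparison set teratoma against embryoid body, in control cells and in knockout cells. Age, growth in a host and the RNA extraction method (RNeasy columns for embryoid bodies, Trizol for teratomas) differ together here and cannot be told apart. Epha5, Sema3c, Plxnc1, Sema6d, Epha3, Ephb1 and Efnb3 were at least 4-fold higher in the control teratoma, and Efna4 and Efnb1 at least 4-fold lower. Of the 9 plexins 4 were at least 2-fold higher and 0 lower there (2 and 0 with array medians centred, 0 and 0 of 8 measured with averaged probe sets). Of the 5 ephrin-A ligands 0 were higher and 3 lower. In control cells 13 of 49 measured members were at least 2-fold higher and 7 lower (26.5% and 14.3%), against 16.2% and 19% of all 12956 measured genes. In knockout cells 12 of 48 were higher and 8 lower (25% and 16.7%), against 19.8% and 19.8% of all genes. These counts depend on the scaling: with the array medians centred, the splits were 9 higher and 9 lower in control cells and 12 and 13 in knockout cells. That centring moved the median of all genes from -0.18 to -0.55 in control cells and from -0.15 to -0.46 in knockout cells. Under that centring 11.8% of all genes were higher and 31.6% lower in control cells, and 15.7% and 29.3% in knockout cells. The member median exceeded that of all genes by 0.71 in control and 0.44 in knockout cells as deposited, by 0.51 and 0.37 after quantile normalization, and by 0.22 and 0.17 with averaged probe sets. Before that subtraction the member median in knockout cells was 0.29 as deposited and -0.021 with medians centred.

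The members furthest above their embryoid body level included genes under the floor at day 5. Epha5 was at least 8.82-fold higher in control teratomas and at least 17.7-fold higher in knockout teratomas. Sema3c, which guides neural crest to the heart outflow tract, read 5.97 (control) and 5.78 (knockout) in embryoid bodies, against 8.96 (control) and 8.29 (knockout) in teratomas. Both teratomas thus lay far above both embryoid bodies, by 7.97-fold in control and 5.68-fold in knockout cells. Plxnc1 read 4.04, below the floor, in control and 4.93 in knockout embryoid bodies, against 7.24 (control) and 7.85 (knockout) in teratomas. It was at least 5.79-fold higher in control and 7.53-fold higher in knockout teratomas, while its other measured probe set gave 1.86-fold and 1.97-fold. Sema6d, a ligand of Plxna1, read 9.06 (control) and 9.29 (knockout) in embryoid bodies, against 11.34 (control) and 11.43 (knockout) in teratomas. The knockout and control arrays of Sema6d lay close together in both settings, and the tissue difference was 4.87-fold and 4.41-fold.

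Ephb1, which steers uncrossed retinal axons, read 5.96 (control) and 6.18 (knockout) in embryoid bodies, against 8.18 (control) and 7.57 (knockout) in teratomas, 4.66-fold and 2.62-fold higher in teratomas. Epha3 was 4.68-fold higher in control teratomas and at least 5.84-fold higher in knockout teratomas. Efnb3 was 4.23-fold higher in control and 11.6-fold higher in knockout cells. All of these were higher in both teratomas than in both embryoid bodies.

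The members furthest below their embryoid body level included ephrin-A ligands and a vessel receptor. Efna4, a GPI-anchored ligand, read 7.94 (control) and 8.69 (knockout) in embryoid bodies, 5.13 in the control teratoma and 4.66, below the floor, in the knockout teratoma. It was 6.99-fold lower in control and at least 12.5-fold lower in knockout teratomas. Efna1 was 3.06-fold and 6.24-fold lower in control and knockout cells. Ephb4 read 8.0 (control) and 8.24 (knockout) in embryoid bodies, against 6.49 (control) and 5.95 (knockout) in teratomas, 2.86-fold and 4.88-fold lower. For these 3 genes both teratomas lay below both embryoid bodies. Efna2 read 8.51 (control) and 8.48 (knockout) in embryoid bodies, against 7.27 (control) and 6.78 (knockout) in teratomas. This probe set differed by -1.24 in control and -1.70 in knockout cells, and the other Efna2 probe set by -0.20 and -1.52. All 5 ephrin-A ligands lay below 0 in both comparisons, from -0.04 (Efna5) to -2.80 (Efna4) in control cells. Most genes did as well: 39.4% of all genes lay above 0 in control and 41.9% in knockout cells, around medians of -0.18 and -0.15. Epha1, an epithelial receptor, read 6.32 (control) and 6.85 (knockout) in embryoid bodies, against 4.71 (control) and 4.76 (knockout), below the floor, in teratomas. The control teratoma was at least 2.36-fold lower and the knockout teratoma at least 3.51-fold lower. With the array medians centred all 5 ephrin-A ligands again lay below 0 in both, and after quantile normalization 4 of 5 did in control cells.

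The size of the tissue difference for Efnb1, Nrp1 and Nrp2 depended on which embryoid body was the base. The comparisons share these arrays with the knockout comparison, so the values are set side by side only. Efnb1 was 4.50-fold lower in teratomas from control cells and 1.42-fold lower in those from knockout cells. Nrp1 was 3.09-fold and 1.84-fold lower. Nrp2 was 1.44-fold higher in control and 3.98-fold higher in knockout cells, and Sema5a 1.77-fold and 3.50-fold higher. With averaged probe sets the control difference was under 2-fold for Nrp1 (-0.94) and Efna2 (-0.72). For Epha3 the averaged control embryoid body value lay below the floor, so its 0.71 is a bound and does not place it under 2-fold.

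**Figure D4:**
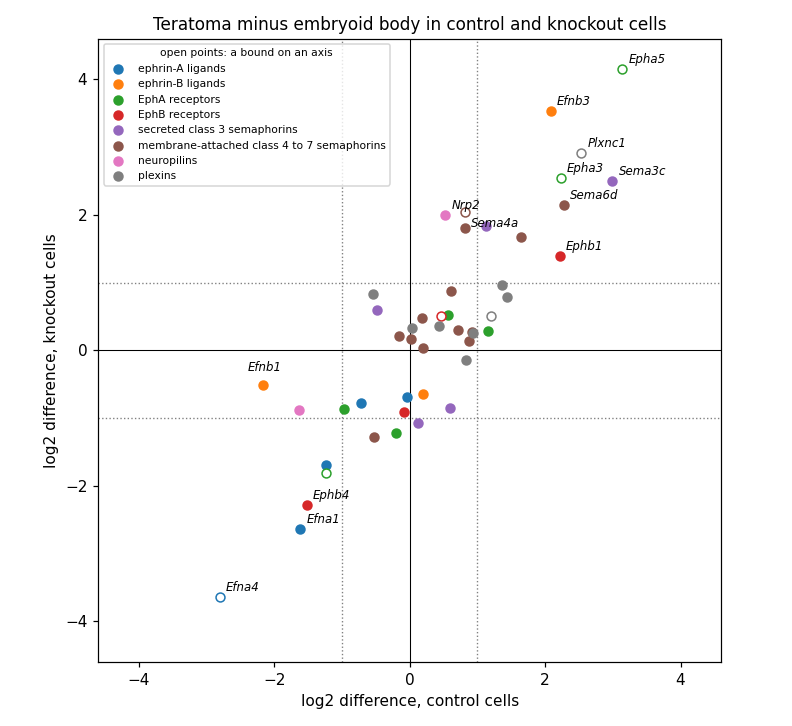
Log2 difference, teratoma minus embryoid body, of members measured in both comparisons, in control cells (x axis) and knockout cells (y axis), coloured by role, with dotted lines at 2-fold and open points where a value is a bound. Epha5, Sema3c, Plxnc1 and Efnb3 lie at the upper right and Efna4 at the lower left, and Efnb1 lies past the left dotted line only.

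In teratomas the neuron and glial markers were above embryoid body levels throughout. All 14 neuron markers were at least 2-fold higher in teratomas in both control and knockout cells, and 10 of 10 measured astrocyte and oligodendrocyte markers were as well. In control cells 2 of 11 endothelial markers were higher and 1 lower, and 4 of 10 epithelial markers were lower and 1 higher. In knockout cells 6 of 11 endothelial markers were higher and 1 lower, and 8 of 10 epithelial markers were lower. Of 12 mesenchyme markers 4 were higher and 3 lower in control cells (median 0.63), and 10 were higher and 1 lower in knockout cells (median 3.92). The part of these cell types in the guidance gene levels was not tested.

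The other guidance systems were read through fixed lists. Among all measured genes in knockout embryoid bodies, 2.18% were at least 2-fold higher and 3.98% lower, around a median of 0.026. In knockout embryoid bodies the Slit ligand genes Slit2 and Slit3, repellents of the midline, differed by -2.05 and -1.66, and the remaining Slit ligand, Slit1, by 0.76. Of 10 measured Slit, Robo and partner genes 3 were at least 2-fold lower, the third being Flrt2 at -1.20. The 2 higher ones were Robo1, a Slit receptor, at 1.00 and its partner Srgap1 at 1.32, and the median was -0.09. Of 13 measured netrin and repulsive guidance molecule genes and receptors 2 were higher and 1 lower. Rgma, a GPI-anchored repellent, and Ntn1, the netrin of the floor plate, differed by 1.43 and 1.30 and the netrin receptor Unc5c by -1.25, around a median of 0.31. Of 23 measured cytoplasmic effectors 1 was higher, the collapsin response mediator Dpysl5 at 1.22, and 0 lower. Of 7 measured VEGF ligands and receptors 0 were higher or lower, with values from -0.65 (Vegfc) to 0.60. Guidance adhesion genes were measured for 3 of 10, of which Ncam1 and Gap43 differed by -1.33 and -1.11.

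In teratomas these lists held few 2-fold differences between genotypes, as did all measured genes (3.25% higher and 1.07% lower). Of 15 measured netrin and repulsive guidance genes 1 was lower, the commissural axon cue Draxin at -1.25. Of 11 Slit and Robo genes, 24 cytoplasmic effectors, 8 VEGF genes and 9 adhesion genes, 0 were higher or lower. Their medians were 0.21 for netrins, -0.12 for Slits, 0.12 for effectors, -0.05 for VEGF genes and 0.43 for adhesion genes, against 0.065 over all genes. Between settings the adhesion genes stood out in size: 9 of 9 measured were at least 2-fold higher in teratomas in both control and knockout cells, L1cam for example by 4.66 and Gap43 by 3.24 in control cells. Over all genes the share was 16.2% and 19.8%. Differences of Chl1, Nrcam, Nfasc, Cntn1, Cntn2 and Dcx are bounds, as both embryoid bodies were below the floor. Netrin and repulsive guidance genes were higher for 10 of 15 measured in control and 11 of 15 in knockout cells, with 1 lower in each. The adhesion gene Dcx is also in the neuron list.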

How the data were processed

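The deposited values are log2 expression of 45101 probe sets on 4 arrays, which the authors made with affy and RMA, per the submitters' processing notes. RMA removes background, equalises quantiles and combines the probes of a set. The sources used here give no software versions and do not say whether the arrays went through RMA jointly. The quantiles of the 4 arrays are not identical. The number of arrays limits the precision.

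Of these probe sets 64 were controls, and 34945 of the others named 1 gene in the platform annotation. Each gene took its probe set with the highest mean. Values under the floor, the 50th percentile of an array's non-control probe sets, were raised to it. Genes with a log2 difference of 1 or more (2-fold) were counted, and no p-value was computed. The members and lists were chosen with earlier results of these data known. Values on all arrays are given for members at least 2-fold different by genotype, within 0.15 of that line, or among the 6 furthest each way between control tissues. Other members appear as examples. Up to 3 genes with the largest differences measured on both arrays are named per list, and others (Kdr, Flt1, Robo1, Flrt2, Slit1, Prrx1, Twist1, Thy1, Stmn2, Dcx, Csf1r, Tyrobp, primitive streak and cartilage genes, and genes below the floor) were chosen after their values were seen. Alternatives covered probe sets, floor and scaling. Calculations used Python 3.11.15 and pandas 2.3.3 and were tested on simulated data.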

Additional observations from a re-analysis of the deposited data

Results flagged for a closer look

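Knockout differences had opposite signs in embryoid bodies and teratomas, both beyond the spread between probe sets (pooled SD over all genes 0.29 and 0.28), for 7 members. The same count was not made over all genes, so whether 7 is more than the background share is not known. Over members alone the pooled SD was 0.33 and 0.34, and the teratoma differences of Plxnb1 and Sema3b lie within it. The difference between settings was not tested, since each group has 1 array. Values are the teratoma difference minus the embryoid body difference on the log2 scale. Sema3a, the growth cone repellent, had the most negative, -1.45 (1.09 in embryoid bodies and -0.35 in teratomas). The Nrp2 ligand Sema3f had -1.20 (0.51 and -0.69), on a probe set with shared sequence. Its other probe sets lay above 0 in both settings, at 0.012 and 0.07 in embryoid bodies and 0.32 and 0.26 in teratomas. The Sema4d receptor Plxnb1 had -0.98 (0.65 and -0.33). Epha7, a receptor that takes part in neural tube closure, had -0.87 (0.35 and -0.52). The midline ephrin Efnb3 had the most positive, 1.46 (-0.96 and 0.50). The plexin Plxna4 had 1.38 (-1.02 and 0.36). Sema3b had 1.08 (-0.76 and 0.32), although another of its probe sets, at 4.75 and 5.24, differed by 0.49 in embryoid bodies.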

How the results depend on the processing

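No paired analysis was possible because each group has 1 array. Of 154 values of counts and medians recomputed under 7 alternatives, 140 moved by less than the spread between probe sets or, for counts, within 1.5 times. For the others the cause was not tested. With averaged probe sets, 3 of 40 measured members were lower in knockout embryoid bodies, against 3% of all genes. In the knockout teratoma 0 of 41 were then higher, against 2.41% of all genes. For teratoma against embryoid body in control cells, 7 of 45 were higher and 4 lower, against 13.3% and 15.9% of all genes. The share of higher members there was nearer that of all genes than as reported. The netrin median between teratomas was -0.093 with averaged probe sets. With the floor at the 65th percentile 1 of 38 measured members was higher in the knockout teratoma, against 2.69% of all genes. After quantile normalization 1 of 48 was higher and 1 lower, against 3.07% and 1.69% of all genes. For teratoma against embryoid body in knockout cells, 4 of 42 were lower without shared-sequence probe sets, against 20% of all genes. With array medians centred 13 of 48 were lower, against 29.3% of all genes. Shared-sequence sets were taken by name alone, as every probe set named _a_at, _s_at or _x_at. Without them 42 members rather than 48 were measured in this comparison. Whether an _a_at probe set shares sequence with another gene, or only among transcripts of its own gene, was not checked. Efna4, Epha2 and Ephb4, lower as reported, have only an _a_at probe set and so had no value there. The adhesion gene median in embryoid bodies, which rests on 3 genes, was -1.11 as reported, -0.80 with averaged probe sets, -0.48 without shared-sequence ones, -0.17 with the floor at the 25th percentile and 0.025 with no floor. Efnb1, Nrp1, Nrp2 and Sema3a kept their side of 2-fold in embryoid bodies under all alternatives that gave a value, while Plxna4, Sema5a and Epha3 did not under all.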

Other observations

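Probe sets of a few members read differently, which bears on any single value for them. A shared-sequence probe set of Sema4f, a semaphorin of the postsynaptic membrane, read 2.81 (control) and 3.37 (knockout) in embryoid bodies, against 5.93 (control) and 6.88 (knockout) in teratomas. The probe set used for Sema4f read 5.15, 5.35, 5.87 and 5.65 in the same order. A lower-reading probe set of Nrp1 read 6.39 (control) and 5.76 (knockout) in embryoid bodies, against 8.0 (control) and 6.91 (knockout) in teratomas. It was higher in teratomas, whereas the other 3 probe sets of Nrp1 were lower there. In teratomas that probe set was 2.13-fold lower in the knockout. A second Efna3 probe set differed by 0.77 in embryoid bodies and 0.92 in teratomas, against 0.33 and 0.29 for the one used.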
